A study of Homo sapiens with 12 samples.

Results

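The genes described here are 43 genes of DNA replication and S phase. They were taken by symbol, with earlier results of these data known. They cover E2F factors, cyclin E, origin licensing, the replicative helicase, the polymerases, nucleotide supply and chromatin assembly. All 43 had a row in the table of 58830 entries, and all 43 passed the filter on low values (10 or more normalized counts in 3 or more of the 12 libraries). RNA was sequenced from A549, an epithelial line from a human lung adenocarcinoma, and from a derivative whose genotype is labelled as a knockout of the miR22/SNAI1 target site. SNAI1 encodes a transcription factor of epithelial-mesenchymal transition and miR-22 is a microRNA. Each line was grown in the same serum-containing medium and was either left untreated or given TGFβ, an inducer of that transition, at 10 ng/mL. All RNA was taken at day 5, with 3 libraries per group that the labels call biological repeats. The 4 groups are called untreated and treated wild type, and untreated and treated edited line. The edited cells were 1 derivative, and effects of the edit and of deriving that line cannot be told apart. The p-values cover only the spread among the repeats.

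Before S phase the origin recognition complex, CDC6 and CDT1 load the MCM2 to MCM7 ring onto DNA. CDC45 and the GINS proteins then turn the ring into an active helicase, and polymerases alpha, epsilon and delta copy the strands with the sliding clamp PCNA. Many of these genes are targets of E2F factors, which the retinoblastoma protein holds back until cyclin-dependent kinases, cyclin E with CDK2 among them, release them. TGFβ is known as a growth inhibitor of many epithelial cells.

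Recovered reads ran from 84210775 to 111141708 per library, and the lowest value of any member in any library was 84.6 normalized counts (CCNE2). The labels give no batch. The treated wild type libraries stood further apart from each other than those of the other groups: a chi-square of their reads per degree of freedom was 114 for replicates 1 and 3 and 39.4 for replicates 2 and 3, against 10.7 to 29.1 for the 10 other pairs. Their mitochondrial share of reads was 3.79%, 3.22% and 2.73%, against 2.20% to 2.83% in the 9 other libraries. The sum of 9 lung epithelial and A549 genes ran from 1499620 to 2285090 normalized counts over the 12 libraries. That sum covers genes that moved in opposite directions. ALDH1A1 had the largest mean of the list in every group. Its mean was 781815 untreated against 970556 treated for wild type, and 881172 against 1288750 for edited cells. Every other gene of the list had a lower mean with TGFβ in both lines. For CDH1 the means were 28540 and 9233, then 34091 and 10285, in the same order. Sums of 6 fibroblast genes ran from 165 to 207 in untreated wild type, 1408 to 1773 in treated wild type, 219.9 to 283 in the untreated edited line and 1944 to 2317 in the treated edited line. Sums of 5 endothelial genes stayed at 183 or below, with TEK listed at 0 in untreated wild type, CDH5 in treated wild type and KDR in both edited groups. These genes did not move alike. The mean of PECAM1 was 103.5 in untreated and 1.76 in treated wild type, and 137 and 5.84 in the edited line. That of TEK was 26.5 in treated wild type, and 0.688 untreated and 31.7 treated in the edited line. The part of other cell types in the results was not tested. In GENCODE 29, 15 of the 43 members share exon bases with a gene on the opposite strand. The sources used here do not give whether reads were counted by strand, and without it reads of such pairs cannot be told apart.

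**Figure D1:**
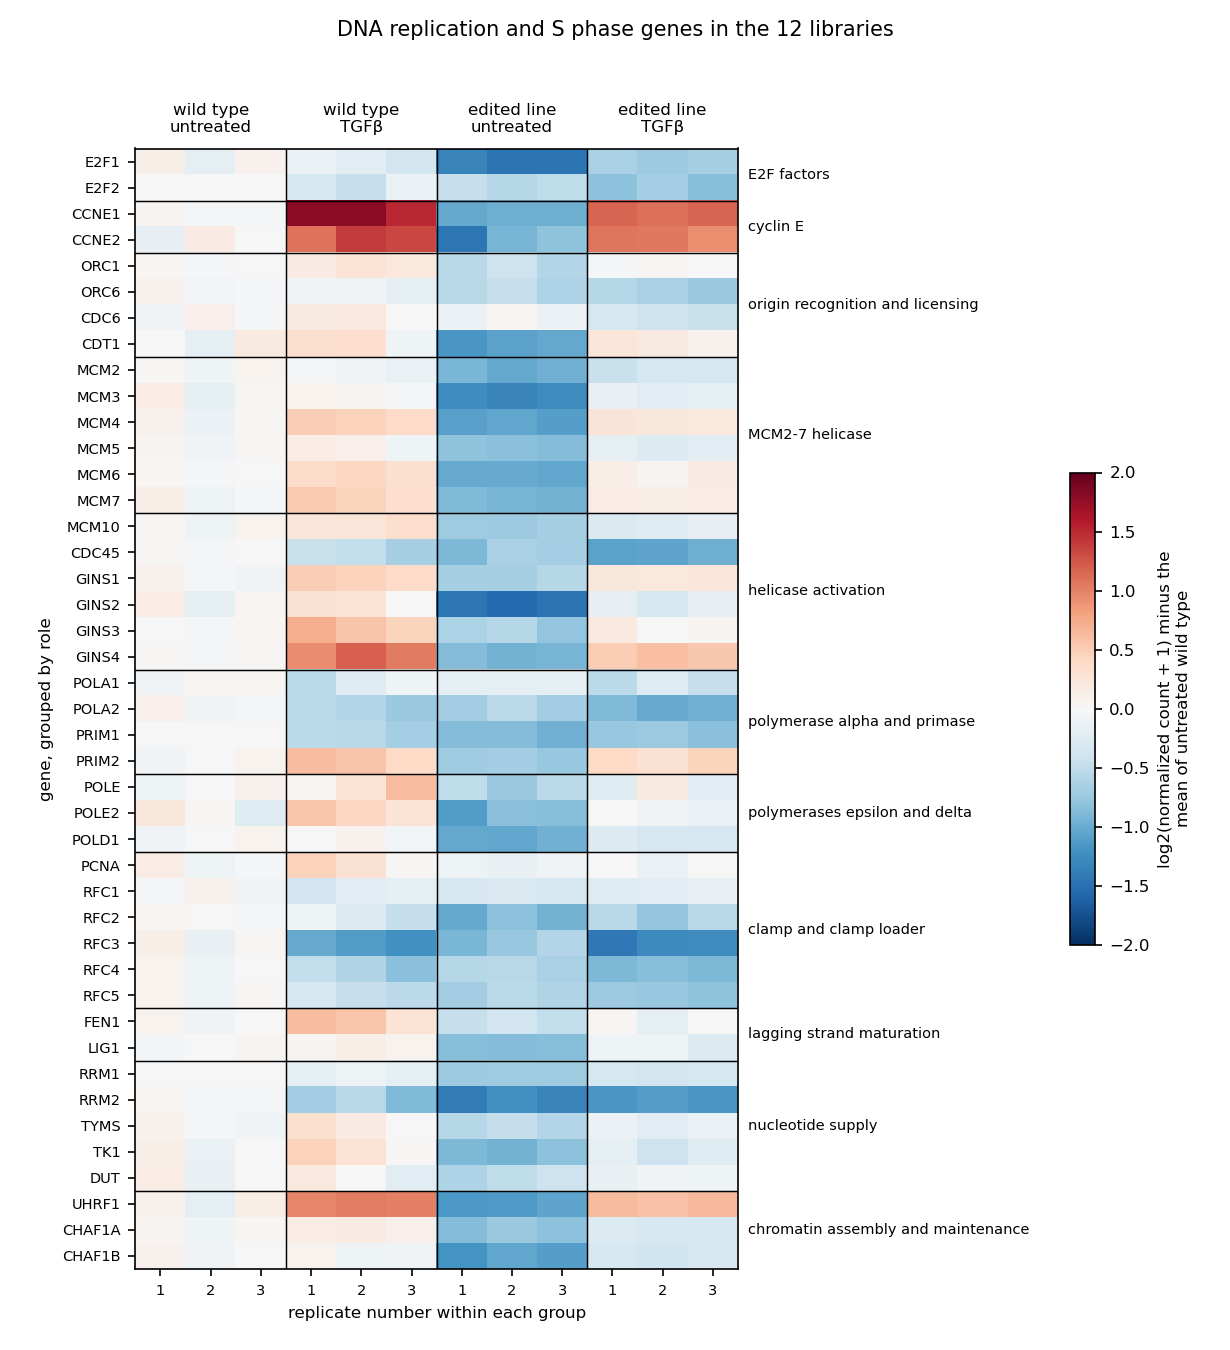
Each row is 1 of the 43 genes, ordered by role, and each column 1 of the 12 libraries. Colour gives log2(normalized count + 1) minus the gene's mean in untreated wild type, from -2 (blue) to 2 (red). The untreated edited line is blue in nearly all rows, while treated libraries hold rows of both colours.

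Promoters were read because most members moved together between the untreated lines. RefSeq promoters on GRCh38.p14, from 250 bases before to 50 after the annotated start, matched 39 of the 43 members (CCNE2, MCM4, MCM5 and GINS4 were not matched). They were searched on both strands, overlaps allowed, for 5 sets of E2F letters: TTTCGCGC, TTTGGCGC, TTTCCCGC, TTTGGCGG and GGCGGGAA. At least 1 of these was found in 28 of the 39 members (71.8%) and in 1556 of all 27305 promoters (5.7%). In 23 members a match began between 60 bases before and 25 after the start, and 13 members held 2 or more matches. Among these 13, the matches of MCM2, GINS2, PCNA, LIG1 and CHAF1A overlap and cover a single stretch in each, so the count is not one of separate sites. The CCAAT box (CCAAT) was found in 21 of 39 members (53.8%) against 35.7% of all promoters, and the letters TTTGAA or TTCGAA of the cell cycle homology element of G2 and mitosis genes in 2 of 39 (5.13%) against 16.6%. A match describes letters and not a bound site. The sequences below run 5′ to 3′ on the gene's strand, with the E2F letters in capitals. E2F1, CDT1, MCM2, MCM3, MCM6, GINS2 and UHRF1 are shown as members that were lower in the untreated edited line, CDC6 and PCNA as members that hold the letters and were not called there, and RRM2 as a strongly lower member without them.
E2F1: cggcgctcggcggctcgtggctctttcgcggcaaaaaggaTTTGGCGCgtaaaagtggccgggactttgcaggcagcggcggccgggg
CDT1: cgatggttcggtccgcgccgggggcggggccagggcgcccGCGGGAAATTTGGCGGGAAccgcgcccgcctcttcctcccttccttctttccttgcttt
MCM2: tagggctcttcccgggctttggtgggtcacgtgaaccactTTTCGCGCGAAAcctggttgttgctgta
MCM3: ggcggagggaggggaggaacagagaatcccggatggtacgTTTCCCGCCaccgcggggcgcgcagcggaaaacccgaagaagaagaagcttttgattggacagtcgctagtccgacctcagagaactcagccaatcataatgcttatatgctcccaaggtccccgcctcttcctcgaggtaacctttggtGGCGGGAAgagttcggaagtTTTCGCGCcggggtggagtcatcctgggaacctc
MCM6: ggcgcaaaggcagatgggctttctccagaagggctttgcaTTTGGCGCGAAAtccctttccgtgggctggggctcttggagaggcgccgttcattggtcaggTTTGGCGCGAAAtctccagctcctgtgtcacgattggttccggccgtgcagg
GINS2: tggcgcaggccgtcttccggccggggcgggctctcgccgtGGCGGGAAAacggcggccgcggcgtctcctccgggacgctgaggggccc
UHRF1: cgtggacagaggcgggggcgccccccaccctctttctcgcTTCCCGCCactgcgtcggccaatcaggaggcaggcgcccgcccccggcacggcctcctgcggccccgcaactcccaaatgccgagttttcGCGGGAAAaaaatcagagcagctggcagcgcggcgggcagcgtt
CDC6: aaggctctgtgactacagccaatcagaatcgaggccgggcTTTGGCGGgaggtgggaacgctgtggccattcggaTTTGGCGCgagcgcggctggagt
PCNA: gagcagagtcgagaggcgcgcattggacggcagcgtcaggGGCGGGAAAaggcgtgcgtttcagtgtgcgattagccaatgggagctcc
RRM2: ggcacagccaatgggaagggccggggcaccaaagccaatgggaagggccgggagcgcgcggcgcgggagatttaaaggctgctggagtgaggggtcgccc

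On GRCh38.p14 these stretches lie at chr20:33686358-33686445 (minus strand) for E2F1, chr16:88803714-88803812 (plus strand) for CDT1, chr3:127598373-127598440 (plus strand) for MCM2, chr6:52284713-52284956 (minus strand) for MCM3, chr2:135876482-135876635 (minus strand) for MCM6, chr16:85688938-85689026 (minus strand) for GINS2, chr19:4909357-4909530 (plus strand) for UHRF1, chr17:40287811-40287908 (plus strand) for CDC6, chr20:5126634-5126722 (minus strand) for PCNA and chr2:10122639-10122738 (plus strand) for RRM2. In MCM2, MCM3, MCM6, GINS2 and PCNA matches on the 2 strands overlap each other, and in CDT1 a pair on the same strand does.

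Members with and without the letters, as found in these windows, had like differences between the untreated lines. For some members the window lay inside the gene's span and not at its outer end, as for UHRF1, ORC1 and PRIM2. The PRIM2 window was 57314555 to 57314854, in a gene from 57221540 to 57646850. ORC1 and PRIM2 count among the members without the letters, and other starts were not searched. Only exact letters were counted, so a stretch that differs in a single base falls among those without. The ORC1 window holds ATTGGCGC, which differs from TTTGGCGC in its first base. The split therefore cannot separate members with and without E2F sites, and the part of such sites was not tested. The median log2 fold change was -0.75 over the 28 members with E2F letters, of which 25 were called lower, and -0.72 over the 11 without, of which 11 were called lower. The values of the 28 ran from -1.49 to -0.07 and those of the 11 from -1.31 to -0.44.

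The first comparison asks how the lines differed without TGFβ. Of the 43 members, 40 were lower in the untreated edited line and 0 were higher, by limma with Benjamini-Hochberg adjustment over 20456 genes and a threshold of 0.05 (two-sided, as all tests here). Among all tested genes 17.5% were called lower and 14.3% higher. The members' median log2 fold change, on the log2(normalized count + 1) scale as all fold changes here, was -0.81, against a median of 0.0021 over all tested genes. Lower by more than 2-fold were 11 members, and the share of all tested genes past that size was not computed. Among the members the largest differences were those of GINS2 (-1.49), E2F1 (-1.42), RRM2 (-1.31) and MCM3 (-1.27), described by role below. In 41 members all 3 edited libraries lay below all 3 wild type libraries, which held for 25.1% of all tested genes. No member was higher by an unadjusted p under 0.05, by edgeR or by DESeq2. In bulk RNA, fewer cells in S phase and less RNA per cell cannot be told apart.

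The 3 members that were not called were CDC6, POLA1 and PCNA. CDC6, which with CDT1 loads the helicase, gave -0.07 ± 0.07, adjusted p = 0.473. PCNA, the sliding clamp that holds polymerases on DNA, gave -0.10 ± 0.09, adjusted p = 0.435. POLA1, the catalytic subunit of polymerase alpha, gave -0.19 ± 0.09, adjusted p = 0.146, with all 3 edited libraries below all 3 of wild type, and it was called without treated wild type library 1 (adjusted p = 0.0434). The summed reads of the 43 members made up 0.322% to 0.341% of all reads in untreated wild type, against 0.201% to 0.204% in the untreated edited line.

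**Figure D2:**
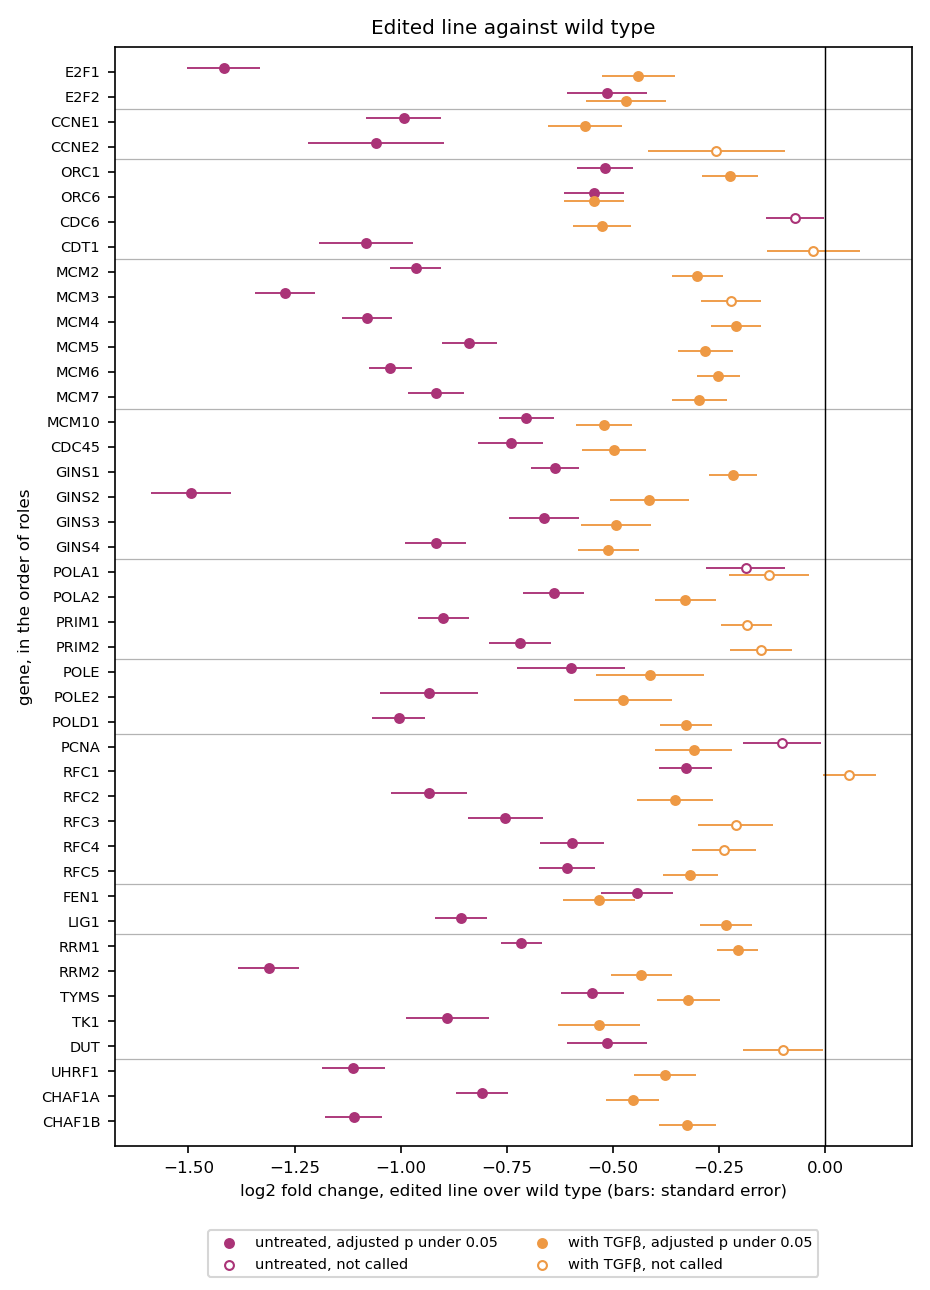
Log2 fold change of the edited line over wild type (x axis, bars give the standard error) for each of the 43 genes (y axis), untreated in purple and with TGFβ in orange. Filled points passed the test. Untreated points lie between -1.49 and -0.07, and points with TGFβ between -0.57 and 0.06.

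TGFβ moved the members both ways in wild type. It lowered 13 and raised 17 of the 43, with 30.9% of all tested genes called lower and 30.8% higher. The members' median was 0.12 (all genes 0.0172), from -1.11 for RFC3 to 1.71 for CCNE1. The genes called lower were E2F1, E2F2, CDC45, POLA1, POLA2, PRIM1, RFC1 to RFC5, RRM1 and RRM2. With quantile normalization in place of the deposited scaling, 10 were called lower and 22 higher. Leaving out treated wild type library 3 gave 11 lower and 20 higher, and leaving out its library 1 gave 12 and 15.

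In the edited line TGFβ raised 30 members and lowered 8, with 32.1% of all tested genes called higher and 30.7% lower. The members' median was 0.51 (all genes 0.0257, a median that quantile normalization shifted by -0.11). By more than 2-fold 11 members rose, and the share of all tested genes past that size was not computed. The 8 genes called lower were E2F2, CDC6, CDC45, POLA1, POLA2, RFC3, RFC4 and RFC5. That count was 5 without untreated edited library 3 or without treated edited library 1 or 3. Read gene by gene, 16 members rose in both lines and 7 fell in both. Shares of all tested genes for such joint calls were not computed. E2F1, RFC2 and RRM1 fell in wild type and rose in the edited line. Another 11 rose in the edited line that were not called in wild type, and 1, CDC6, fell. PRIM1, RFC1 and RRM2 fell in wild type and were not called in the edited line. PCNA rose in wild type and was not called in the edited line, and ORC6 was called in neither.

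The difference of the TGFβ responses, tested as the interaction, had the same direction in most members. It contains the untreated comparison of the lines with its sign reversed, so it is not independent of the lower untreated values. The response was higher in the edited line for 30 and lower for 1, CDC6, with 10.6% of all tested genes called higher and 6.02% lower. The median difference was 0.43 (all genes 0.0237). All genes split into 2163 higher and 1232 lower with the deposited scaling, 1731 and 1628 with equal totals, and 1759 and 1533 with quantile normalization. The members split into 26 and 1, and 25 and 1, under those scalings. Without treated wild type library 3 the 2 members called lower were CDC6 and PCNA.

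With TGFβ in both lines the members' median difference was smaller than without it. In the treated edited line 33 members were lower than in treated wild type and 0 were higher, with 4.32% of all tested genes called lower and 7.38% higher. Their median was -0.32 (all genes 0.0128), from -0.57 for CCNE1 to 0.06 for RFC1, and in 37 members all edited libraries lay below all wild type libraries (11.4% of all tested genes). All genes split into 1510 higher and 884 lower with the deposited scaling, 1254 and 1355 with equal totals, and 1367 and 1345 with quantile normalization. The members called lower were 35 and 36 under those scalings. With no filter on low values 20 members were called lower, and leaving out treated wild type library 2 gave 23. The call was kept under every alternative by 17 members. No member was higher by an unadjusted p under 0.05, by edgeR or by DESeq2. The members' reads made up 0.328% to 0.351% of all reads in treated wild type and 0.267% to 0.275% in the treated edited line.

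**Figure D3:**
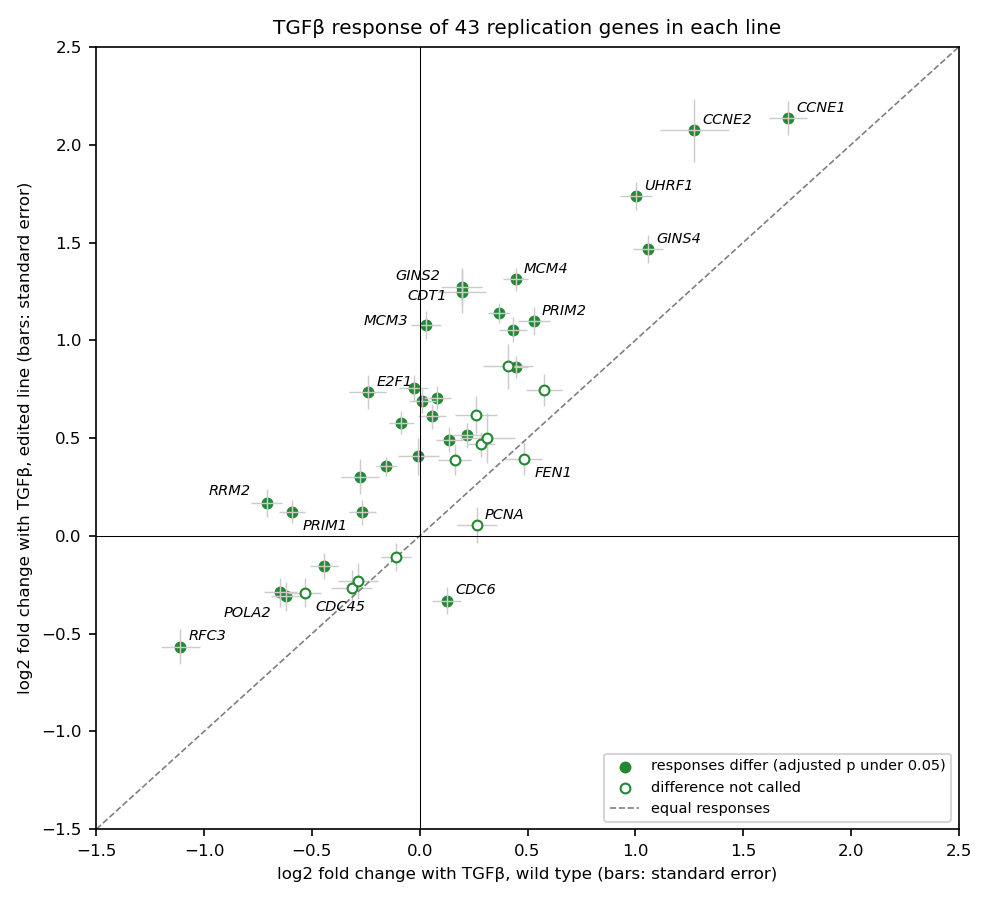
Log2 fold change with TGFβ in wild type (x axis) against that in the edited line (y axis) for the 43 genes, with standard errors as bars. Filled points are genes whose responses differed by the interaction test, and the dashed line marks equal responses. Of the 31 filled points 30 lie above the line, and CDC6 lies below it.

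E2F1 and E2F2 are activating E2F factors. E2F1 (GRCh38.p14 chromosome 20, 33675477 to 33686385) had normalized counts of 4016, 3222 and 3905 in replicates 1 to 3 of untreated wild type and 3396, 3147 and 2864 with TGFβ, and in edited cells 1470.2, 1345 and 1341 untreated and 2348, 2231 and 2340.1 with TGFβ. The untreated edited libraries were the lowest of the 12, and the untreated and treated wild type libraries overlapped. E2F1 was lower in the untreated edited line (-1.42 ± 0.09, adjusted p = 1.13e-08). With TGFβ it fell in wild type (-0.24 ± 0.09, adjusted p = 0.0228) and rose in the edited line (0.74 ± 0.09, adjusted p = 1.31e-06), and the responses differed by 0.98 ± 0.12 (adjusted p = 8.15e-05). The fall in wild type was not called without untreated wild type library 1 or 3 (-0.18 and -0.20) or treated wild type library 2 or 3 (-0.25 and -0.18). E2F2 kept the same order of lines, with a mean ± SD of 919.6 ± 5.98 (n = 3) in untreated wild type against 644 ± 23.0 in edited libraries (-0.51 ± 0.09, adjusted p = 0.000599). Unlike E2F1, it was called lower with TGFβ in both lines (-0.32 ± 0.09 and -0.27 ± 0.09). The E2F2 call in wild type was lost without treated wild type library 2 (-0.24). That in the edited line was lost without replicate 1 or 3 of either edited group, at -0.26 to -0.24.

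Both cyclin E genes, which encode the partners of CDK2 at the entry to S phase, rose with TGFβ in both lines. CCNE1 (GRCh38.p14 chromosome 19, 29811991 to 29824312) was at 636, 606 and 599 in replicates 1 to 3 of untreated wild type and 2136, 2156 and 1754 with TGFβ, and in edited cells 302, 311 and 309.8 untreated and 1376, 1320.1 and 1369.7 with TGFβ. The 4 groups did not overlap, and the untreated edited libraries were lowest. Its rise was 1.71 ± 0.09, adjusted p = 6.05e-11 in wild type and 2.14 ± 0.09, adjusted p = 3.27e-12 in the edited line, 3.27-fold and 4.39-fold. It was lower in the edited line without TGFβ (-0.99 ± 0.09, adjusted p = 5.68e-07) and with it (-0.57 ± 0.09, adjusted p = 0.00057). CCNE2 was at 207, 261 and 233 in replicates 1 to 3 of untreated wild type and 496, 615 and 590.0 with TGFβ, and in edited cells 84.6, 122 and 133 untreated and 489.6, 483 and 445 with TGFβ. Untreated edited libraries again lay below untreated wild type (-1.06 ± 0.16, adjusted p = 0.000124), and treated libraries lay above untreated ones in each line. It rose by 1.27 ± 0.16 in wild type and by 2.08 ± 0.16 in the edited line. The difference of these responses, 0.80 ± 0.23 (adjusted p = 0.0243), was not called without untreated wild type library 2 or 3 (0.72 and 0.80), untreated edited library 1 (0.61) or treated edited library 1 (0.78). CCNE2 shares 1629 exon bases with INTS8 on the opposite strand. Per kb of annotated exons CCNE2 had the lowest level of the 43 members in untreated wild type (53.2) and PCNA the highest (18260.1), and PCNA stayed highest in all 4 groups.

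In the edited line the licensing factors CDT1 and CDC6 responded to TGFβ in opposite directions. CDT1 (GRCh38.p14 chromosome 16, 88803789 to 88809258), the loading factor for the MCM ring, had counts of 2111, 1829.8 and 2378 in replicates 1 to 3 of untreated wild type and 2617, 2658 and 1981 with TGFβ, and in edited cells 934, 1001 and 1035 untreated and 2471, 2375 and 2217 with TGFβ. The untreated edited libraries were the lowest of the 12 and the other 3 groups overlapped. It was lower in the untreated edited line (-1.08 ± 0.11, adjusted p = 2.47e-06) and rose there with TGFβ (1.25 ± 0.11, adjusted p = 4.92e-08). In wild type its response was 0.19 ± 0.11, adjusted p = 0.139, and it was called higher without treated wild type library 3 (0.33) or untreated wild type library 3 (0.29). The responses differed by 1.05 ± 0.16 (adjusted p = 0.000326). CDC6 (GRCh38.p14 chromosome 17, 40287879 to 40304657) was at 7757, 8658 and 7933 in replicates 1 to 3 of untreated wild type and 9183, 9312 and 8069 with TGFβ, and in edited cells 7484, 8269.8 and 7438 untreated and 6334, 6111 and 5975 with TGFβ. The untreated lines overlapped, and the treated edited libraries were the lowest of the 12. CDC6 fell with TGFβ in the edited line (-0.33 ± 0.07, adjusted p = 0.000489), and its response there was lower than in wild type (-0.46 ± 0.10, adjusted p = 0.00416). In wild type the response was 0.12 ± 0.07, adjusted p = 0.127, called higher without treated wild type library 3 (0.19). ORC1 and ORC6, subunits of the origin recognition complex, were lower in the untreated edited line (-0.52 ± 0.07 and -0.55 ± 0.07). ORC6 was also lower there with TGFβ (-0.54 ± 0.07, adjusted p = 0.00013).

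All 6 subunits of the MCM2 to MCM7 ring were lower in the untreated edited line, from -1.27 for MCM3 to -0.84 for MCM5. MCM3 (GRCh38.p14 chromosome 6, 52264015 to 52284742) was at 14647, 11706 and 13390.2 in replicates 1 to 3 of untreated wild type and 13885, 13713 and 12792 with TGFβ, and in edited cells 5576, 5295 and 5518 untreated and 11882, 11273 and 11462 with TGFβ. Both wild type groups overlapped, and every untreated edited library lay below all 9 others. Its difference between the untreated lines was -1.27 ± 0.07, adjusted p = 4.84e-09, a fold of 0.414. With TGFβ it gave 0.03 ± 0.07, adjusted p = 0.748 in wild type, with the sign turned without untreated wild type library 2 (-0.06), and rose by 1.08 ± 0.07, adjusted p = 1.18e-09 in the edited line. The subunits did not respond alike in wild type. MCM4, MCM6 and MCM7 rose (0.44 ± 0.06, 0.37 ± 0.05 and 0.43 ± 0.07), while MCM2, MCM3 and MCM5 were not called (-0.09 ± 0.06, 0.03 ± 0.07 and 0.06 ± 0.06). In the edited line all 6 rose, from 0.58 ± 0.06 for MCM2 to 1.31 ± 0.06 for MCM4. The responses differed between the lines for all 6, from 0.56 for MCM5 to 1.05 for MCM3. MCM7 shares 392 exon bases with AP4M1 on the opposite strand and MCM2 1113 with an antisense gene.

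**Figure D4:**
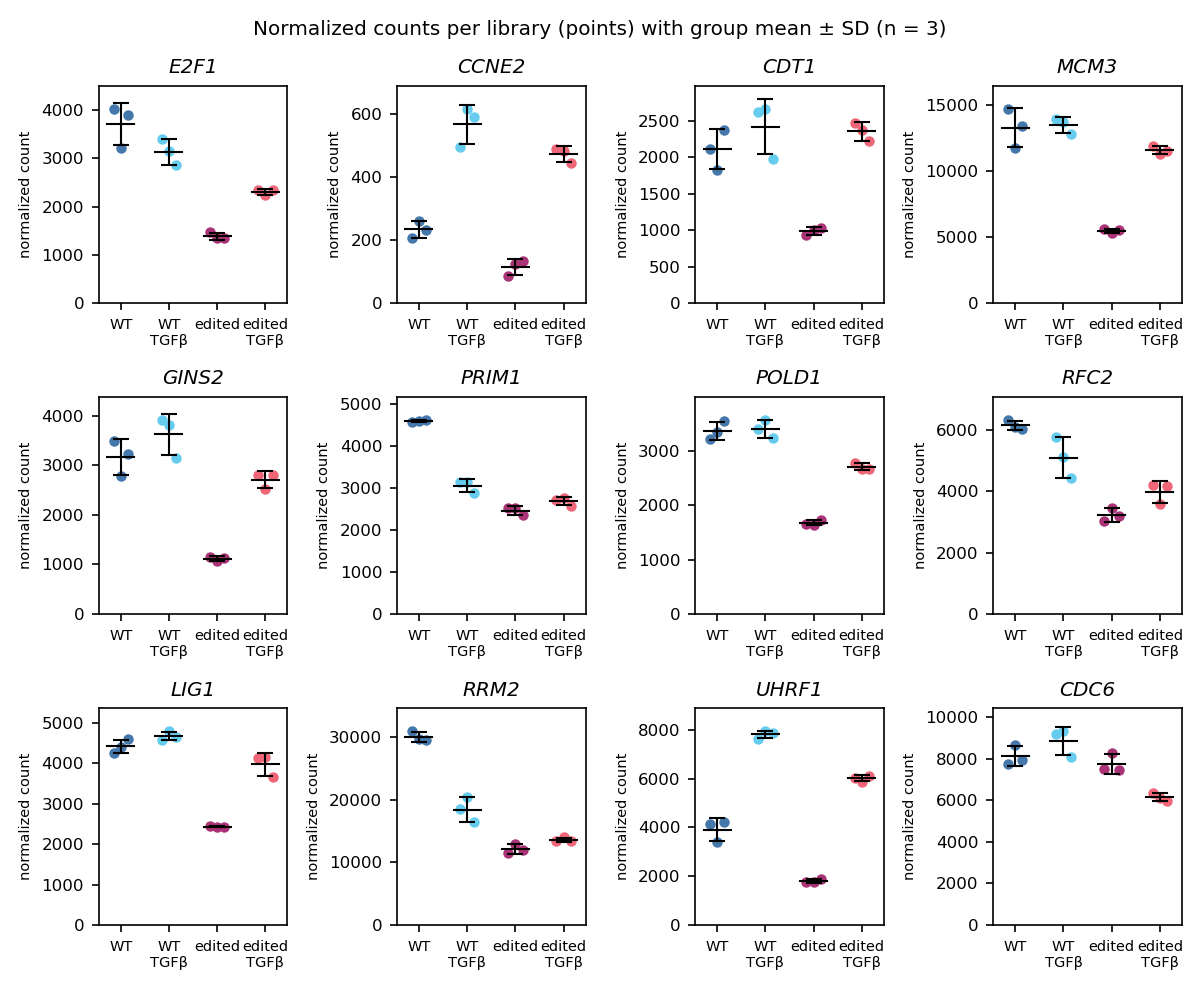
Normalized counts (y axis, from 0) in each library (points) by group (x axis) for the member of each role with the largest difference between the untreated lines, and for CDC6. Lines and bars give the mean ± SD (n = 3). The untreated edited libraries are the lowest group in the first 11 panels, and the treated edited libraries in the CDC6 panel.

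Helicase activation, by which MCM10, CDC45 and the GINS subunits start the ring, held the member with the largest difference between the untreated lines. GINS2 (GRCh38.p14 chromosome 16, 85676198 to 85688954) was at 3498, 2778 and 3222 in replicates 1 to 3 of untreated wild type and 3906, 3818 and 3143 with TGFβ, and in edited cells 1153, 1068 and 1135 untreated and 2812, 2516 and 2801 with TGFβ. Every untreated edited library lay below all 9 others. The difference was -1.49 ± 0.09, adjusted p = 1.6e-08, a fold of 0.355. GINS2 rose with TGFβ in the edited line (1.27 ± 0.09, adjusted p = 5.27e-09). In wild type it gave 0.19 ± 0.09, adjusted p = 0.0851, called higher without untreated wild type library 1 (0.27) or treated wild type library 3 (0.29). The GINS2 responses differed by 1.08 ± 0.13 (adjusted p = 7.74e-05). GINS1, GINS3 and GINS4 rose in wild type (0.44 ± 0.06, 0.58 ± 0.08 and 1.06 ± 0.07) and in the edited line (0.86 ± 0.06, 0.75 ± 0.08 and 1.47 ± 0.07). MCM10 rose in both lines too (0.28 ± 0.07 and 0.47 ± 0.07). CDC45, the helicase subunit that joins GINS on the ring, fell in both (-0.53 ± 0.08 and -0.29 ± 0.08), to 2251 ± 169.7 in treated wild type and 1591 ± 49.4 in the treated edited line.

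Polymerase alpha and primase lay down the primers of new strands. PRIM1 (GRCh38.p14 chromosome 12, 56731580 to 56752323), the catalytic primase subunit, was at 4583, 4596 and 4618 in replicates 1 to 3 of untreated wild type and 3149, 3144 and 2874 with TGFβ, and in edited cells 2527, 2518 and 2352 untreated and 2706, 2776 and 2579 with TGFβ. Untreated wild type lay above all 9 other libraries. It was lower in the untreated edited line (-0.90 ± 0.06, adjusted p = 3.28e-08) and fell with TGFβ in wild type (-0.59 ± 0.06, adjusted p = 3.09e-07). Its response in edited cells was 0.12 ± 0.06, adjusted p = 0.086. The regulatory subunit PRIM2 moved the other way with TGFβ in wild type, rising by 0.53 ± 0.07, adjusted p = 1.02e-05, and rose by 1.10 ± 0.07, adjusted p = 1.52e-09 in the edited line. POLA1 and POLA2, the catalytic and accessory subunits of polymerase alpha, fell with TGFβ in wild type (-0.29 ± 0.09 and -0.62 ± 0.07) and in the edited line (-0.23 ± 0.09 and -0.31 ± 0.07). Either POLA1 call was lost without replicate 1 of that treated group (-0.17 and -0.17). The call in wild type was also lost without untreated wild type library 3 (-0.27). The call in the edited line was also lost without untreated wild type library 2 or 3, treated wild type library 2, any 1 replicate of the untreated edited line or treated edited library 3, with values from -0.24 to -0.21. PRIM1 shares exon bases with genes on both strands.

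Polymerases epsilon and delta extend the leading and lagging strands. POLD1 (GRCh38.p14 chromosome 19, 50384323 to 50418018), the catalytic subunit of polymerase delta, was at 3226, 3342 and 3546 in replicates 1 to 3 of untreated wild type and 3395, 3564 and 3242 with TGFβ, and in edited cells 1662, 1639 and 1734 untreated and 2779, 2668 and 2672 with TGFβ. Both wild type groups overlapped, and the untreated edited line was lowest. Its difference between the untreated lines was -1.01 ± 0.06, adjusted p = 1.26e-08. It did not pass the test with TGFβ in wild type (0.01 ± 0.06, adjusted p = 0.877), where its sign turned without untreated wild type library 1 (-0.02) or treated wild type library 2 (-0.02), and rose in the edited line (0.69 ± 0.06, adjusted p = 5.78e-08). POLE and POLE2, subunits of polymerase epsilon, were lower in the untreated edited line (-0.60 ± 0.13 and -0.93 ± 0.12). POLE had the widest relative spread in treated wild type, from 6159.8 to 9148, and it was the 1 member whose lower call in the untreated edited line was lost under an alternative, that with no filter on low values.

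The clamp and its loader differed from each other. PCNA (GRCh38.p14 chromosome 20, 5114953 to 5126622) was at 29559.6, 24889 and 26134 in replicates 1 to 3 of untreated wild type and 36873, 33067 and 27324 with TGFβ, and in edited cells 25089, 24232 and 25585 untreated and 27045, 24348 and 26552 with TGFβ. The untreated lines overlapped and so did untreated and treated libraries in each line, while treated wild type lay above the treated edited line. Its rise with TGFβ in wild type (0.26 ± 0.09, adjusted p = 0.02) was not called without treated wild type library 1 or 2 (0.17 and 0.24) or untreated wild type library 2 or 3 (0.21 and 0.25). The RFC1 to RFC5 complex opens and places the clamp. RFC2 (GRCh38.p14 chromosome 7, 74231502 to 74254399) was at 6324, 6114 and 6033 in replicates 1 to 3 of untreated wild type and 5772, 5118 and 4434 with TGFβ, and in edited cells 3024, 3475 and 3183 untreated and 4203, 3576 and 4172 with TGFβ. Edited libraries of each treatment lay below wild type libraries of the same treatment. It was lower in the untreated edited line (-0.93 ± 0.09, adjusted p = 1.24e-06), fell with TGFβ in wild type (-0.28 ± 0.09, adjusted p = 0.0131, -0.18 and not called without treated wild type library 3) and rose in the edited line (0.30 ± 0.09, adjusted p = 0.00755). With no filter on low values neither that rise nor the difference of the responses (0.58 ± 0.13) passed the test (adjusted p = 0.0763 and 0.0749). All 5 loader genes fell with TGFβ in wild type. RFC3 fell most (-1.11 ± 0.09, adjusted p = 1.48e-08), from 8248 ± 749.9 to 3816 ± 270.4, followed by RFC4 (-0.65 ± 0.08, adjusted p = 1.42e-06). With TGFβ in edited cells RFC3, RFC4 and RFC5 fell (-0.57 ± 0.09, -0.29 ± 0.08 and -0.16 ± 0.07), with the RFC5 call lost without untreated wild type library 1 or 3, treated wild type library 2, untreated edited library 2 or 3 or any 1 replicate of the treated edited line, at values from -0.17 to -0.12. RFC1 was not called there (0.12 ± 0.06, adjusted p = 0.109).

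FEN1 trims and LIG1 joins the fragments of the lagging strand. LIG1 (GRCh38.p14 chromosome 19, 48115445 to 48170344) was at 4258, 4397 and 4589 in replicates 1 to 3 of untreated wild type and 4585, 4789 and 4642 with TGFβ, and in edited cells 2455, 2412 and 2433 untreated and 4137, 4149 and 3651 with TGFβ. The untreated edited libraries were the lowest of the 12, and both wild type groups overlapped. LIG1 was lower in the untreated edited line (-0.86 ± 0.06, adjusted p = 6.71e-08), gave 0.08 ± 0.06, adjusted p = 0.262 with TGFβ in wild type and rose in the edited line (0.71 ± 0.06, adjusted p = 4.07e-08). FEN1 rose with TGFβ in both lines (0.48 ± 0.08 and 0.39 ± 0.08), and its difference between the lines was -0.44 ± 0.08 without and -0.53 ± 0.08 with TGFβ.

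Ribonucleotide reductase, made of RRM1 and RRM2, supplies deoxynucleotides. RRM2 (GRCh38.p14 chromosome 2, 10122568 to 10211010), the subunit whose level limits the enzyme in S phase, was at 30876, 29562 and 29526 in replicates 1 to 3 of untreated wild type and 18510.2, 20351 and 16347 with TGFβ, and in edited cells 11428, 12882 and 11984 untreated and 13378, 13960.4 and 13398 with TGFβ. Untreated wild type lay above every other library, and the 4 groups did not overlap. RRM2 was lower in the untreated edited line (-1.31 ± 0.07, adjusted p = 4.32e-09) and fell with TGFβ in wild type (-0.71 ± 0.07, adjusted p = 2.65e-07). In the edited line its response was 0.17 ± 0.07, adjusted p = 0.0518, and it was called higher without any 1 replicate of treated wild type, at the same value, or without untreated edited library 2 (0.21). RRM1 fell in wild type (-0.15 ± 0.05, adjusted p = 0.0111) and rose in the edited line (0.36 ± 0.05, adjusted p = 7.53e-06). The RRM1 fall was not called when wild type libraries alone were fitted (adjusted p = 0.0537). TYMS, TK1 and DUT, which make or keep clean the thymidine nucleotide pool, were lower in the untreated edited line (-0.55 ± 0.08, -0.89 ± 0.10 and -0.51 ± 0.09) and rose there with TGFβ (0.39 ± 0.08, 0.62 ± 0.10 and 0.41 ± 0.09). TK1 was also lower in the edited line with TGFβ (-0.53 ± 0.10, adjusted p = 0.0021), a call lost with no filter on low values (adjusted p = 0.0581). TYMS shares 967 exon bases with ENOSF1 on the opposite strand.

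UHRF1 guides the copying of DNA methylation, and CHAF1A and CHAF1B are subunits of the factor that loads histones behind the fork. UHRF1 (GRCh38.p14 chromosome 19, 4903080 to 4962154) was at 4154, 3387 and 4203 in replicates 1 to 3 of untreated wild type and 7643, 7942 and 7864 with TGFβ, and in edited cells 1762, 1773 and 1876 untreated and 6046, 5876 and 6125 with TGFβ. The 4 groups did not overlap, and both treated groups lay above both untreated ones. It was lower in the untreated edited line (-1.11 ± 0.07, adjusted p = 2.69e-08) and rose with TGFβ in wild type (1.00 ± 0.07, adjusted p = 5.33e-09) and in the edited line (1.74 ± 0.07, adjusted p = 4.72e-12). The responses differed by 0.73 ± 0.10 (adjusted p = 0.000233). CHAF1A and CHAF1B were lower in the untreated edited line (-0.81 ± 0.06 and -1.11 ± 0.07). With TGFβ they rose in the edited line (0.49 ± 0.06 and 0.76 ± 0.07) and were not called in wild type (0.14 ± 0.06 and -0.03 ± 0.07), where CHAF1B turned sign without untreated wild type library 1 (0.01).

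Ratios within a library describe the balance of partners; the pairs were chosen after the values were seen and carry no test. Levels were normalized counts per kb of annotated exons, and each ratio is given for replicates 1 to 3. The sum of MCM4, MCM6 and MCM7 over that of MCM2, MCM3 and MCM5 was 1.59, 1.67 and 1.56 in untreated wild type and 2.12, 2.13 and 2.14 with TGFβ, and in edited cells 1.72, 1.79 and 1.71 untreated and 2.11, 2.10 and 2.14 with TGFβ. The treated libraries of both lines lay within a narrow range above all untreated ones. RRM2 over RRM1 was 1.21, 1.18 and 1.17 in untreated wild type and 0.834, 0.862 and 0.736 with TGFβ, and in edited cells 0.747, 0.837 and 0.778 untreated and 0.680, 0.711 and 0.681 with TGFβ. The ratio was above 1 in untreated wild type and below 1 in the 3 other groups. Which side of 1 a group took depended on the annotated exon lengths, 5323 bases for RRM2 and 4177 for RRM1. In normalized counts without that division, mean RRM2 was 18403 against 17799 for RRM1 in treated wild type. It was 12098 against 12059 in the untreated and 13579 against 15428 in the treated edited line. PRIM1 over PRIM2 was 5.62, 5.39 and 5.18 in untreated wild type and 2.40, 2.49 and 2.55 with TGFβ, and in edited cells 4.84, 4.80 and 4.65 untreated and 2.41, 2.65 and 2.23 with TGFβ. It was lower in every treated library than in every untreated one. CDC6 over CDT1 was 2.21, 2.84 and 2.00 in untreated wild type and 2.11, 2.10 and 2.45 with TGFβ, and in edited cells 4.81, 4.96 and 4.32 untreated and 1.54, 1.54 and 1.62 with TGFβ. The untreated edited line was highest and the treated edited line lowest in that ratio, while both wild type groups overlapped. CCNE1 over CCNE2 was 5.29, 3.998 and 4.43 in untreated wild type and 7.43, 6.05 and 5.13 with TGFβ, and in edited cells 6.16, 4.39 and 4.01 untreated and 4.85, 4.71 and 5.31 with TGFβ. All 4 groups overlapped in that ratio.

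**Figure D5:**
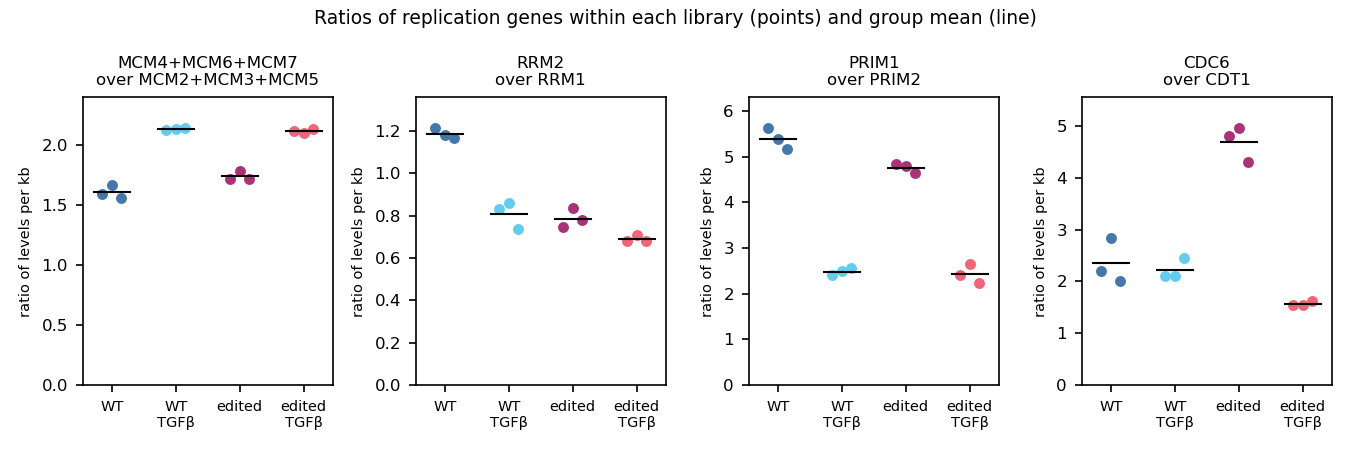
Ratios of levels per kb (y axis, from 0) within each library (points) by group (x axis), with the group mean as a line (n = 3). From left to right the panels give the MCM subunits, RRM2 over RRM1, PRIM1 over PRIM2 and CDC6 over CDT1. In the MCM and primase panels the treated groups of both lines are separate from the untreated ones.

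Other genes of the pathway were taken from lists of 36 further replication genes, 28 of the RB and E2F network (26 tested), 8 G2 and mitosis markers and 9 ATR checkpoint genes. Of the 36 further replication genes 30 were lower and 1 higher in the untreated edited line. Over all tested genes the shares were 17.5% and 14.3%, and the median of the 36 was -0.51. The lowest were WDHD1, which helps polymerase alpha at the fork (-1.15 ± 0.07), DTL, which targets CDT1 for destruction (-1.08 ± 0.06), and CLSPN, a fork checkpoint adaptor (-0.96 ± 0.13). POLD4, a small subunit of polymerase delta, was higher (0.44 ± 0.09). The TGFβ responses of these further genes differed between the lines in 16 of 36. Higher in the edited line were 14, led by WDHD1 (0.97 ± 0.11), DNA2 (0.77 ± 0.12) and DTL (0.70 ± 0.09). Lower were 2, POLD4 (-0.42 ± 0.13) and POLE4 (-0.41 ± 0.12). Over all tested genes 10.6% had a higher and 6.02% a lower response there. The POLD4 call was lost without any single library other than treated wild type library 3 and treated edited library 1 (-0.45 to -0.31). That of POLE4 was lost without untreated wild type library 3, treated wild type library 2, untreated edited library 1 or 2 or treated edited library 2 (-0.41 to -0.34). Of the G2 and mitosis markers 2 of 8 were lower in the untreated edited line (17.5% of all tested genes were), CDK1 (-0.23 ± 0.08, adjusted p = 0.033) and AURKB (-0.23 ± 0.08, adjusted p = 0.0451), and their median was -0.01. The CDK1 call was lost without untreated wild type library 1 or 3 or untreated edited library 1 or 2 (-0.25 to -0.16). That of AURKB was lost without any replicate of untreated wild type, replicate 1 or 3 of either edited group or treated wild type library 2 (-0.23 to -0.19), and with equal totals or quantile normalization. Among the others, chosen after their values were seen, MKI67, the Ki-67 gene of cycling cells, gave -0.06 ± 0.14, adjusted p = 0.797 and TOP2A, the mitotic topoisomerase, 0.07 ± 0.11, adjusted p = 0.655. Of the ATR checkpoint genes 5 of 9 were lower, among them WEE1 (-0.51 ± 0.06), CHEK1 (-0.46 ± 0.05) and ATRIP (-0.45 ± 0.09), and 0 were higher. With TGFβ in wild type 21 of the 36 further replication genes fell and 10 rose, and in the edited line 12 fell and 16 rose. Over all tested genes 30.9% fell and 30.8% rose in wild type, and 30.7% fell and 32.1% rose in the edited line. Among the G2 and mitosis markers 2 of 8 fell and 2 rose in wild type, and 4 fell and 1 rose in the edited line.

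In the untreated edited line 11 of 26 tested genes of the RB and E2F network were lower and 3 higher. Over all tested genes the shares were 17.5% and 14.3%, and the network's median was -0.19. CDK2, the kinase partner of cyclin E (-0.98 ± 0.07, adjusted p = 5.08e-08), CCND3, cyclin D3 (-0.85 ± 0.08, adjusted p = 2.04e-06), and E2F7, a repressive E2F (-0.81 ± 0.10, adjusted p = 1.8e-05), were the lowest. The higher ones were CDKN1A, CCND1 (cyclin D1, 0.32 ± 0.06) and E2F4 (a repressive E2F, 0.20 ± 0.07). The E2F4 call was lost without untreated wild type library 1 or 3 or any replicate of the untreated edited line (0.18 to 0.21). CDKN1A encodes p21, an inhibitor of cyclin-dependent kinases that also binds PCNA. It was at 9101 ± 549.7 in untreated wild type, 20088 ± 1454 in treated wild type, 22127 ± 694 in the untreated edited line and 23416 ± 1801 in the treated edited line. It was higher in the untreated edited line (1.28 ± 0.07, adjusted p = 4.32e-09) and rose with TGFβ in wild type (1.14 ± 0.07, adjusted p = 6.19e-10). Edited cells gave 0.08 ± 0.07, adjusted p = 0.343, and the responses differed (-1.06 ± 0.10, adjusted p = 7.48e-06). The part of CDKN1A in the members' differences was not tested. RB1, the retinoblastoma gene, gave 0.02 ± 0.08, adjusted p = 0.864 between the untreated lines, with the sign turned without untreated edited library 3 (-0.04). CDKN2A, which A549 is known to lack, was listed at 0 in all 12 libraries and was not tested.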

How the data were processed

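RNA-seq of 12 libraries (4 groups of 3) was read from a table of normalized counts per gene. The submitters' processing notes name GRCh38.p14 as the build and DESeq2, featureCounts, HISAT2 and StringTie as tools. Versions, annotation, strand use and scaling steps are not given in sources used here. The deposited values are normalized counts, a signal scaled between libraries, which the authors deposited with decimals. Values in a library were multiples of 1 step (100% whole within a tolerance of 0.01), so reads were recovered: 84210775 to 111141708 per library. Dates stood in place of 28 gene names.

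Genes with a normalized count of at least 10 in at least 3 of 12 libraries (20456) were tested on log2(value + 1) with limma 3.58.1 (R 4.3.3), in a single fit of 4 group means with 5 comparisons, two-sided, with Benjamini-Hochberg adjustment over all tested genes and a threshold of 0.05. The numbers after log2 fold changes are standard errors. No libraries were duplicates. The members, lists and comparisons were chosen with earlier results of these data known. By rule, values in every library were given for the member of each role with the largest difference between the untreated lines, values for the 3 called members with the largest change in each direction of the other comparisons, and up to 3 called genes in each direction of a pathway list. Alternatives were other pseudocounts, filters, scalings and variance estimates, a replicate block, only the compared groups, each library left out, edgeR 4.0.16 and DESeq2 1.42.0 on recovered reads, and removal of a trend with gene length, the last chosen after seeing the data. The scripts were tested on simulated data. Promoters, gene positions and their build come from RefSeq (GRCh38.p14), and exon lengths and overlaps from GENCODE 29. The result of 1 further marker list is not reported here.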

Additional observations from a re-analysis of the deposited data

Results flagged for a closer look

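The TGFβ responses differed between the lines by the test of the difference itself for 30 members with a higher response in the edited line and for CDC6 with a lower one. This test shares its untreated libraries with the comparison in which 40 members were lower in the edited line. The difference, on the log2 scale and as the edited line minus wild type, was 0.98 for E2F1, 0.80 for CCNE2, 1.05 for CDT1, 1.05 for MCM3, 1.08 for GINS2, 0.71 for PRIM1, 0.68 for POLD1, 0.58 for RFC2, 0.62 for LIG1, 0.88 for RRM2 and 0.73 for UHRF1. For CDC6 it was -0.46. With no filter on low values the differences of CCNE2 and RFC2 were not called (adjusted p = 0.145 and 0.0749). In groups of 3 no library was tested for standing apart from the others in a single gene.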

How the results depend on the processing

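No member that passed the test changed direction under any alternative run. Calls held under every alternative for 39 of 40 members between the untreated lines, 21 of 30 with TGFβ in wild type, 33 of 38 in the edited line, 17 of 33 between the treated lines and 22 of 31 in the difference of responses. With no filter on low values 20 members, not 33, were lower in the treated edited line; that setting tests more genes. Leaving out single libraries gave 5 to 8 members lower with TGFβ in the edited line (8 with all libraries) and 1 to 2 with a lower response there (1 with all libraries). Replicate numbers were not used to pair the samples in the main fit. Deviations from the group means correlated at -0.031 to 0.129 between libraries of the same number and at -0.147 to 0.152 between different numbers. With a replicate block more of all tested genes were called in every comparison, between the treated lines 1863 higher and 1124 lower against 1510 and 884. Whether the numbers pair the samples was not settled. With that block the members' counts lower and higher were 13 and 18 with TGFβ in wild type, 8 and 31 in the edited line, 40 and 0 between the untreated lines, 36 and 0 between the treated lines, and 1 and 32 in the difference of responses. These values, none of which passed the test with all libraries and the deposited scaling, turned sign, and the cause was not tested: with equal totals E2F2 in the difference of responses (-0.00690), ORC6 in the difference of responses (-0.0522), POLD1 with TGFβ in wild type (-0.00598), PCNA with TGFβ in the edited line (-0.0158); with quantile normalization E2F2 in the difference of responses (-0.0404), ORC6 in the difference of responses (-0.0759), POLA1 in the difference of responses (-0.00939), DUT with TGFβ in wild type (0.101), CHAF1B with TGFβ in wild type (0.0405); with TMM ORC6 in the difference of responses (-0.0249); without replicate 1 of both treated groups ORC6 in the difference of responses (-0.0221), CDT1 between the treated lines (0.000148), POLA1 in the difference of responses (-0.00911), DUT between the treated lines (0.0219); with the length trend removed ORC6 in the difference of responses (-0.0171), CDT1 between the treated lines (0.00288), DUT with TGFβ in wild type (0.0255); with edgeR ORC6 in the difference of responses (-0.0236); with DESeq2 ORC6 in the difference of responses (-0.000122), DUT with TGFβ in wild type (0.00141). Leaving out single libraries gave values on both sides of 0 for E2F2 in the difference of responses (-0.0266 to 0.135), ORC6 in the difference of responses (-0.0434 to 0.0458), CDT1 between the treated lines (-0.165 to 0.0469), MCM3 with TGFβ in wild type (-0.0578 to 0.104), POLA1 in the difference of responses (-0.0652 to 0.158), POLD1 with TGFβ in wild type (-0.0221 to 0.0493), RFC1 between the treated lines (-0.00168 to 0.0910), DUT with TGFβ in wild type (-0.104 to 0.101), CHAF1B with TGFβ in wild type (-0.0783 to 0.0125), RB1 between the untreated lines (-0.0410 to 0.0761). The length trend was removed as an alternative chosen after seeing the data. With 3 libraries per group and 1 edited derivative, the spread between derivatives was not measured.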
